A study of Mus musculus with 24 samples.

Results

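CD45+ CD4+ cells sorted from pancreatic tumors of LCL161-treated mice were set against the same sorted cells from vehicle-treated mice. The comparison takes 6 of the 24 libraries of the series, 3 with LCL161 and 3 with vehicle, chosen by their column names in the deposited count table. All mice of both groups were TCRα-/-, lacking a working alpha chain gene of the T cell receptor, and the libraries used here include no wild-type group. The LCL161 group received 75 mg/kg by oral gavage every 3 days from day 4 and was harvested on day 12, after 3 doses. The vehicle group carried the same pancreatic tumors, started in place from live passage M8 organoids. No source used here says whether replicates are separate mice or pools, or gives the ages. P-values of genes therefore speak only for these samples, and the spread they rest on was estimated over all 24 libraries of the series. The libraries held 22702637, 19009626 and 22575120 counts with LCL161 and 21016283, 18954287 and 25145426 counts with vehicle, for replicates 1, 2 and 3.

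LCL161 is a SMAC mimetic, a small molecule that binds the ubiquitin ligases cIAP1 and cIAP2 and drives their degradation. In resting cells these ligases, held in a complex with TRAF2 and TRAF3, keep the kinase NIK low; without them NIK accumulates, p100 (encoded by Nfkb2) is processed to p52, and p52 with RelB enters the nucleus in what is called the alternative NF-kB pathway. In T cells that pathway acts beside costimulatory receptors of the TNF receptor family, and several of its own components and inhibitors are encoded by NF-kB target genes.

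The sort was first checked against marker genes. Levels here are CPM, a gene's count set against the total count of its library after scaling by TMM (trimmed mean of M values). Cd4 stood at 1050, 1100 and 1380 CPM with LCL161 and at 783, 688 and 1220 CPM with vehicle. Cd8a stayed between 0.0469 and 0.512 CPM with LCL161 and between 0.161 and 2.64 CPM with vehicle. Cd8b1, which encodes the CD8 beta chain, had 17.5, 5.28 and 16.6 CPM with LCL161 and 33, 58.3 and 11.9 CPM with vehicle, and the 5 CD8 lineage genes summed to 148 to 210 CPM with LCL161 and 188 to 218 CPM with vehicle. All 9 T cell markers had counts, and they summed to 6110 to 7160 CPM with LCL161 and 5170 to 6450 CPM with vehicle. Cd4, Cd8a, Cd8b1 and both sums overlapped between the groups. Trac, the constant gene of the targeted alpha chain, had 826, 553 and 363 CPM with LCL161 and 63.2, 404 and 548 CPM with vehicle. No source used here says which stretch of the gene was removed, and this level therefore checks nothing. Trdc, from which the delta chain takes its constant region, ran from 8.94 to 226 CPM with LCL161 and from 21.6 to 544 CPM with vehicle, and vehicle replicate 1 was the highest of the 6 libraries.

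Markers of macrophages separated the groups, as the plot of marker sums shows. All 10 macrophage core markers, among them Adgre1, Cd68, C1qa and Lyz2, had counts, none was at 0 in all 6 libraries, and each had groups that did not overlap, as for 15.2% of all genes tested. Their sum was 863, 650 and 1290 CPM with LCL161, against 2860, 5720 and 2280 CPM with vehicle, a mean 3.88 times as high with vehicle. Vehicle replicate 2 was the highest library, and without it the difference of mean log2 sums was -1.51, against -1.90 with all 6. In bulk samples, fewer cells of a type and less RNA per cell cannot be told apart.

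**Figure D1:**
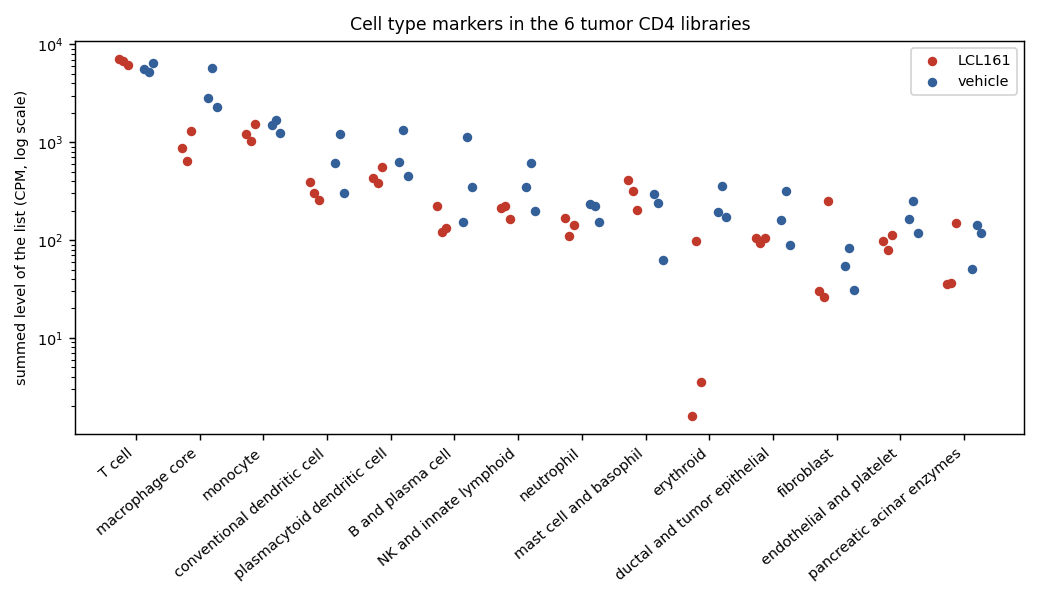
Summed CPM (log scale) of each list of cell type markers in the 3 LCL161 libraries (red) and 3 vehicle libraries (blue), replicates 1 to 3 from left to right within a group. T cell markers lie between 5170 and 7160 CPM in all 6 libraries, while macrophage core markers lie at 650 to 1290 CPM with LCL161 and 2280 to 5720 CPM with vehicle.

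With LCL161, genes of the NF-kB circuit were higher in tumor CD4 libraries (Nfkbia, Icam1, Relb, Bcl3, Birc3, Traf1 and Zc3h12a), by 1.76 to 4.14-fold in mean CPM. Genes lower with LCL161 included Csf1r, Hmox1, Fcna and Cd180, known from macrophages, beside Slamf6, Vsir and Nrp1, receptors that T cells can carry. Of 20174 genes tested, 23 were higher (0.114%) and 42 lower (0.208%) at an adjusted p under 0.05, and 43 of these 65 changed at least 2-fold. Adjusted p-values throughout are from edgeR's quasi-likelihood test with Benjamini and Hochberg's adjustment over all genes tested, and log2 fold changes are LCL161 over vehicle, given ± SE with n = 3 libraries a group. The SE was derived from the test statistic of the fit to all 24 libraries. The groups did not overlap for any of the 65, as for 15.2% of all genes tested. At an unadjusted p under 0.05, 5.57% of all genes were higher and 8.49% lower, and the median log2 fold change over all genes was -0.01. A positive log2 fold change was found for 48.1% of all genes tested.

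The number of genes past the threshold differed between fits. Without vehicle replicate 2 no gene passed in edgeR, though 2066 had an unadjusted p under 0.05, and without LCL161 replicate 1 or 2 there were 4 and 6 genes. Without vehicle replicate 1 there were 37 genes, and without vehicle replicate 3 there were 375, 103 of them higher and 272 lower. Leaving out a spleen CD4 or tumor CD8 library gave from 20 genes (without tumor CD8 vehicle replicate 2) to 100 (without spleen CD4 LCL161 replicate 1). A fit on the 6 libraries alone called 0 genes, with 1713 at an unadjusted p under 0.05, whereas DESeq2 on all libraries called 736. Without scaling beyond the library totals, 15 genes were higher and 60 lower, and the median over all genes was -0.1.

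**Figure D2:**
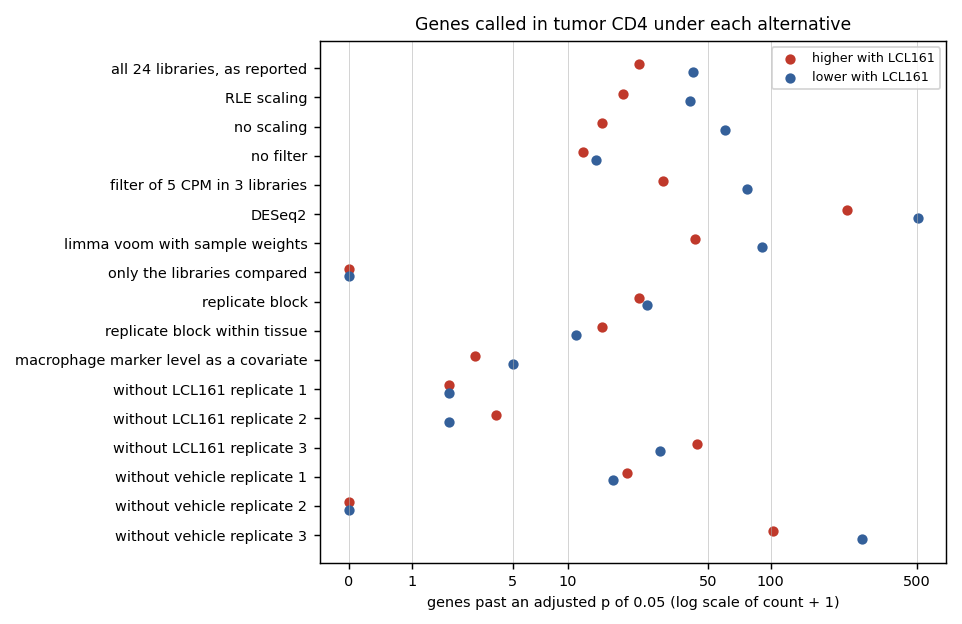
Number of genes past an adjusted p of 0.05, on a log scale of the count plus 1, that were higher (red) or lower (blue) with LCL161 under each alternative setting. The 23 higher and 42 lower genes of the fit to all 24 libraries become 0 and 0 without vehicle replicate 2 and 103 and 272 without vehicle replicate 3.

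The NF-kB subunits and IkB proteins were taken first, since they carry the pathway's signal and restrain it. Nfkbia (chromosome 12, 55489410 to 55492647, minus strand, GRCm38), which encodes the inhibitor IκBα, stood at 1180, 1140 and 930 CPM with LCL161, against 499, 414 and 363 CPM with vehicle. It was 2.55-fold higher, with a log2 fold change of 1.35 ± 0.19 (adjusted p = 0.0109), and passed in 5 of the 6 fits that each left out 1 of these libraries. Relb (chromosome 7, 19606217 to 19629438), the transcription factor partner of p52, had 280, 245 and 232 CPM with LCL161 and 123, 119 and 108 CPM with vehicle (1.11 ± 0.18, adjusted p = 0.0239). Every LCL161 library lay above every vehicle library for both genes. Of those 6 fits, Icam1 passed in 4, Relb, Bcl3, Birc3 and Traf1 in 3 each and Zc3h12a in 2.

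Bcl3 (chromosome 7, 19808462 to 19822770), an atypical IκB protein that binds p50 and p52 in the nucleus, had 163, 188 and 144 CPM with LCL161 and 102, 84.2 and 61.6 CPM with vehicle (1.00 ± 0.17, adjusted p = 0.0262). Nfkb2 (chromosome 19, 46304320 to 46312385), the p100 gene, had 710, 542 and 559 CPM with LCL161 and 322, 273 and 234 CPM with vehicle. Its groups did not overlap and its means differed 2.19-fold, against 2.17-fold for Relb, but its adjusted p was 0.0503 (log2 fold change 1.13 ± 0.24). Nfkbiz, encoding an inducible nuclear IκB, had 204, 290 and 159 CPM with LCL161 and 108, 32.4 and 65.5 CPM with vehicle, a log2 fold change of 1.67 ± 0.39 with an adjusted p of 0.0684. Nfkbie, encoding IκBε, had a log2 fold change of 0.77 ± 0.19 and an adjusted p of 0.0815. Nfkb1, the p105 and p50 gene of the classical pathway, averaged 71.0 ± 1.23 CPM with LCL161 and 71.1 ± 8.69 CPM with vehicle (SD, n = 3 each), and Rela, which encodes p65, averaged 229 ± 9.7 CPM with LCL161 and 206 ± 7.53 CPM with vehicle. Of the 11 genes of this list, all tested, 3 were called higher and none lower, 7 had an unadjusted p under 0.05 with a higher level, and the median log2 fold change was 0.77, against -0.01 over all genes.

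**Figure D3:**
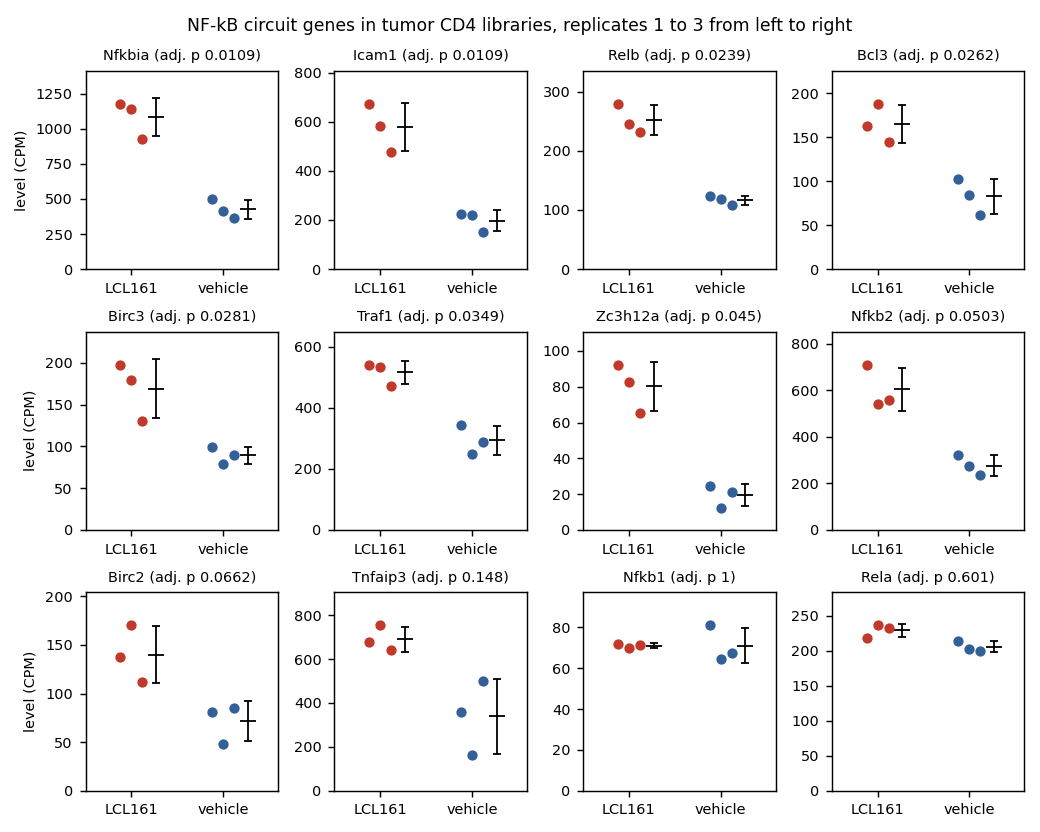
CPM of 12 genes of the NF-kB circuit in the 3 LCL161 libraries (red) and 3 vehicle libraries (blue), with the mean and SD beside each group; each panel has its own scale starting at 0. The first 7 genes passed the threshold, Nfkb2 at an adjusted p of 0.0503 and Birc2 at 0.0662 did not, and Nfkb1 averaged 71.0 CPM with LCL161 and 71.1 CPM with vehicle.

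The stretch of 100 bases before the first start in RefSeq is shown for 4 of the called genes, because NF-kB dimers bind short G- and C-rich sites that often lie there. These starts can differ from the gene positions given here, and 16 bases of the Birc3 stretch lie in an annotated exon. The sequences are from RefSeq on GRCm38.p6, written 5′ to 3′ on the gene's strand, and capitals mark GGG followed by any 5 bases and CC, on either strand. They lie at chr12:55492648-55492747 (minus strand) for Nfkbia, chr9:7873171-7873270 (minus) for Birc3, chr4:125127882-125127981 (minus) for Zc3h12a and chr9:21015840-21015939 (plus) for Icam1.
Nfkbia: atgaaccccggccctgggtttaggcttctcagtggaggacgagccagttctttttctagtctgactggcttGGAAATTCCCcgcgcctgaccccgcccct
Birc3: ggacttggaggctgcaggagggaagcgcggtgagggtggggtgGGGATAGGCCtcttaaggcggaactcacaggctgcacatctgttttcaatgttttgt
Zc3h12a: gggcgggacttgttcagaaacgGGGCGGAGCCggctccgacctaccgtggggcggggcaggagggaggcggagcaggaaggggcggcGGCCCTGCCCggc
Icam1: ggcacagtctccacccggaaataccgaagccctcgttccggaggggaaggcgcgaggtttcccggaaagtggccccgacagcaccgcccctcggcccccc
The Nfkbia match begins 29 bases before the start and also meets the narrower kB consensus motif, every match of which is a match of the broad one, while the Icam1 stretch holds no match in these 100 bases. Over the 250 bases before the start, that broad motif was present in 11 of the 15 named higher genes with an entry, in 15 of 31 named lower genes and in 45.4% of 27025 promoters. The kB consensus motif was present in 1 of the 15 higher genes, in 0 of the 31 lower genes and in 3.75% of all promoters. These matches describe letters only.

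Among the ligases, adaptors and kinases upstream of NF-kB, Birc3 and Traf1 were called. Birc3 (chromosome 9, 7848699 to 7873186), which encodes cIAP2, had 198, 180 and 130 CPM with LCL161, against 99.6, 78.9 and 89.7 CPM with vehicle (0.92 ± 0.17, adjusted p = 0.0281). Traf1 (chromosome 2, 34941750 to 34961772), an adaptor that joins TRAF2 at TNF receptors, had 542, 535 and 472 CPM with LCL161 and 345, 249 and 287 CPM with vehicle (0.82 ± 0.15, adjusted p = 0.0349). The groups of both genes were separate. Birc2, the neighbouring cIAP1 gene, had 138, 170 and 112 CPM with LCL161 and 80.5, 47.7 and 85.6 CPM with vehicle, also without overlap, but did not pass (0.97 ± 0.22, adjusted p = 0.0662). The adaptor gene Traf2 had 119, 103 and 161 CPM with LCL161 and 99.3, 94.3 and 86.7 CPM with vehicle (adjusted p = 0.173). Map3k14, which encodes NIK, averaged 42.9 ± 9.66 CPM with LCL161 and 42.8 ± 13.9 CPM with vehicle, and Diablo, which encodes SMAC itself, ran from 36.2 to 46.5 CPM with LCL161 and from 36.6 to 41.5 CPM with vehicle; both overlapped. Of the 19 genes of this list 2 were called higher and none lower, with a median log2 fold change of 0.29.

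Of 17 genes that end NF-kB signalling or destroy its transcripts, 1 was called. Zc3h12a (chromosome 4, 125118423 to 125127840) encodes Regnase-1, an RNase that cuts inflammatory mRNAs, and had 92.4, 82.9 and 65.4 CPM with LCL161, against 24.4, 12.5 and 21.2 CPM with vehicle. It was 4.14-fold higher in mean CPM, with a log2 fold change of 2.05 ± 0.41 (adjusted p = 0.045). Tnfaip3, which encodes the deubiquitinase A20, had 677, 753 and 640 CPM with LCL161 and 357, 161 and 501 CPM with vehicle; these groups also stood apart, with an adjusted p of 0.148. Zfp36, which encodes the mRNA decay protein tristetraprolin, had a log2 fold change of -0.74 ± 0.27 (adjusted p = 0.216), opposite in sign to most of the list. The median of the list was 0.25.

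Among 25 other NF-kB target genes, Icam1 and Ier5 were called higher and none lower, with a list median of 0.12. Icam1 (chromosome 9, 21015985 to 21028817), the adhesion ligand of the integrin LFA-1, had 674, 582 and 478 CPM with LCL161, against 223, 221 and 149 CPM with vehicle (1.55 ± 0.22, adjusted p = 0.0109). The lowest LCL161 library was above every vehicle library. Icam1 overlaps the antisense gene Gm47079, which was called with nearly the same change (1.53 ± 0.23), and since no source used here gives the strand setting of the counts, reads of the pair cannot be told apart. The same limit holds for the other genes described here that overlap an annotated gene on the opposite strand. Among the called higher genes these are Bcl3, Gabpb1, Rrad, Gpr18, Tubgcp2, Wdr95 and Trp73. The called lower ones are Adam15, Slamf6, Vsir, Csf1r, Fcna, Cd180, Slc7a7, Prg4, Ctsc, Lmo2, Cyp4f18, Cass4, Ccdc152, Gpr155, Aff3, Hs1bp3, Ripor1, Nfic and Rap2b. Among genes not called they are Nfkb2, Traf2, Diablo, Zfp36, Ctsb, Il12rb2, Hopx, Trdc, Foxp3, Ikzf4 and Tnfsf13. Ier5, an immediate early response gene, had 320, 333 and 406 CPM with LCL161 and 225, 224 and 220 CPM with vehicle (0.66 ± 0.13, adjusted p = 0.045). Ccl3, encoding a chemokine of T cells and macrophages, had 3.61, 8.12 and 5.03 CPM with LCL161 and 34.7, 13.9 and 10.2 CPM with vehicle, without passing (adjusted p = 0.29).

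The other named higher genes lie outside those lists or belong to them only in part. Mapkapk3 and Mapkapk2 encode kinases downstream of p38, which act on mRNA stability. Mapkapk3 had 715, 609 and 489 CPM with LCL161 and 210, 204 and 318 CPM with vehicle (1.31 ± 0.24, adjusted p = 0.028), and Mapkapk2 had 811, 791 and 599 CPM with LCL161 and 493, 446 and 394 CPM with vehicle (0.72 ± 0.15, adjusted p = 0.0471). Both pairs of groups were separate, with Mapkapk3 the wider apart. Gpr18, a G protein-coupled receptor gene of lymphocytes, had 191, 216 and 107 CPM with LCL161 and 74.5, 76 and 26.1 CPM with vehicle (1.54 ± 0.32, adjusted p = 0.0461). LCL161 replicate 3 was its lowest treated library and vehicle replicate 3 its lowest control. Gramd3 (1.38 ± 0.24), the ETS factor subunit gene Gabpb1 (0.80 ± 0.15), the small GTPase gene Rrad (0.87 ± 0.17) and the E3 ligase gene Rnf19b (0.60 ± 0.12) also passed, at adjusted p-values of 0.0273 to 0.045. Tubgcp2, of the gamma-tubulin complex (0.85 ± 0.18), the stress granule gene G3bp1 (0.46 ± 0.10) and the phosphatase gene Ptp4a2 (0.67 ± 0.14) passed at 0.0471 to 0.0486.

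Wdr95 and Trp73 were called at low levels. Wdr95 had 21.3, 8.84 and 12.9 CPM with LCL161, against 1.5, 1.78 and 3.05 CPM with vehicle (2.76 ± 0.46, adjusted p = 0.0239). Trp73, which encodes p73 of the p53 family, had 1.13, 5.34 and 1.86 CPM with LCL161 and no count in any vehicle library (adjusted p = 0.0273). LCL161 replicate 2 stood above the other libraries for this gene, and limma voom gave it an adjusted p of 0.216. LCL161 replicate 1 was the highest of its group for 15 of the 23 higher genes (65.2%), against 34.5% of all genes.

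Of the genes lower with LCL161, Adam15 and Slamf6 had the smallest adjusted p. Adam15 (chromosome 3, 89338542 to 89349996), a membrane metalloprotease gene, had 15.4, 13.3 and 18.6 CPM with LCL161, against 34.7, 54.7 and 31.7 CPM with vehicle (-1.35 ± 0.20, adjusted p = 0.0109). Slamf6 (chromosome 1, 171917515 to 171953170), which encodes the lymphocyte receptor Ly108, had 14.8, 33.9 and 16.4 CPM with LCL161 and 54.7, 111 and 70.6 CPM with vehicle (-1.86 ± 0.30, adjusted p = 0.0226). The vehicle libraries lay above the LCL161 libraries throughout, and vehicle replicate 2 was the highest for both. With each of the 6 tumor CD4 libraries left out in turn, Slamf6 passed in 4 fits and Adam15 in 3. Of other lower genes, Csf1r passed in 3, Nrp1 and Hmox1 in 1 each and Cass4 in 0.

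Vsir and Nrp1, receptors known in T cells and beyond them, and the regulator Dusp6 were called lower too. Vsir (chromosome 10, 60346851 to 60372684), the gene of the inhibitory protein VISTA, which myeloid cells carry too, had 149, 180 and 263 CPM with LCL161 and 432, 344 and 354 CPM with vehicle (-0.93 ± 0.17, adjusted p = 0.0273). Nrp1, a semaphorin co-receptor gene expressed by regulatory T cells and by myeloid cells, had 17.2, 6.11 and 11 CPM with LCL161 and 50.9, 42.5 and 31.3 CPM with vehicle (-1.86 ± 0.37, adjusted p = 0.045). Neither gene overlapped between the groups, and for both vehicle replicate 1 rather than 2 was the highest. Dusp6, a phosphatase gene that restrains ERK, fell by 0.56 on the log2 scale, with 159, 127 and 122 CPM with LCL161 and 206, 217 and 181 CPM with vehicle (adjusted p = 0.0486). Vsir was the only member called among 11 inhibitory receptors, Nrp1 among 14 regulatory T cell genes and Slamf6 among 11 follicular helper genes. Dusp6 was in none of these lists. The inhibitory receptors had 8 positive and 3 negative log2 fold changes (median 0.12). Regulatory T cell genes had 6 positive and 7 negative (median -0.11), and follicular helper genes 3 positive and 8 negative (median -0.44). At an unadjusted p under 0.05, Il2ra (1.23 ± 0.55) and Ikzf4 (1.26 ± 0.59) of the regulatory list were higher. Nrp1 and Lrrc32 (-3.72 ± 1.45) of that list were lower. Foxp3, the defining factor of regulatory T cells, had 3.05, 12.2 and 3.4 CPM with LCL161 and 12.9, 12.2 and 7.95 CPM with vehicle, groups that overlap (adjusted p = 0.778).

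Several of the lower genes are known from macrophages. Csf1r (chromosome 18, 61100598 to 61132149), the receptor for the macrophage growth factor CSF1, had 46.3, 39.5 and 83 CPM with LCL161, against 180, 314 and 159 CPM with vehicle (-1.95 ± 0.33, adjusted p = 0.0239). Hmox1, encoding heme oxygenase 1, had 20.8, 39.2 and 50.7 CPM with LCL161 and 132, 271 and 82.9 CPM with vehicle (-2.13 ± 0.44, adjusted p = 0.0461). The groups were separate for both, with vehicle replicate 2 at the top. Fcna, a secreted lectin gene, fell by 2.52, Cd180, a Toll-like receptor homologue of B cells and myeloid cells, by 2.60 and the amino acid transporter gene Slc7a7 by 2.00 on the log2 scale. These 5 were the genes called among 23 other macrophage genes, of which 22 had a negative log2 fold change and 15 were lower at an unadjusted p under 0.05; the list median was -1.60. Prg4, which encodes lubricin and was listed among 10 genes of peritoneal macrophages, had 0.845, 0.334 and 1.49 CPM with LCL161 and 3.67, 7.01 and 18.2 CPM with vehicle (-3.42 ± 0.59, adjusted p = 0.0266). Of the 10 macrophage core markers none was called; 9 were lower at an unadjusted p under 0.05 and their median was -1.99, with C1qc at 92, 52.7 and 133 CPM with LCL161 and 324, 703 and 244 CPM with vehicle (adjusted p = 0.0661).

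Ctss was called lower in the lists of lysosome and phagocytosis genes and of MHC class II presentation. Ctss, which encodes cathepsin S and trims the invariant chain in MHC class II loading, had 213, 230 and 205 CPM with LCL161 and 521, 726 and 378 CPM with vehicle (-1.32 ± 0.27, adjusted p = 0.0464). No LCL161 library reached the lowest vehicle library. Of 19 lysosome and phagocytosis genes, 1 (Ctss) was called lower, all 19 had a negative log2 fold change and the median was -0.63; Ctsb, encoding cathepsin B, had 807, 972 and 776 CPM with LCL161 and 1700, 2050 and 976 CPM with vehicle (adjusted p = 0.119). Of 11 genes of MHC class II presentation, Ctss alone was called lower and all 11 had negative values, with a median of -1.56; Cd74, the invariant chain gene, had 890, 713 and 726 CPM with LCL161 and 1980, 3930 and 963 CPM with vehicle (adjusted p = 0.114).

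The remaining named lower genes were of mixed function. Lgmn, which encodes the endopeptidase legumain, had 62.3, 51.9 and 79.5 CPM with LCL161 and 212, 332 and 139 CPM with vehicle (-1.82 ± 0.31, adjusted p = 0.0239), without overlap. On the log2 scale the protease gene Ctsc fell by 0.99 and the lysosomal phospholipase gene Pla2g15 by 1.40. The lysosomal amino acid transporter gene Slc36a1 fell by 2.01 (adjusted p 0.0266 to 0.0461 for Ctsc, Pla2g15 and Slc36a1). These 4 genes, Lgmn included, are in none of the lists. Plekho1 (-1.99 ± 0.36), Rab11fip5 (-2.00 ± 0.41), the hematopoietic cofactor gene Lmo2 (-2.44 ± 0.48), Cass4 (-2.14 ± 0.45) and Cyp4f18 (-1.96 ± 0.39), whose enzyme hydroxylates leukotriene B4, also fell. Cass4 overlaps the antisense gene Gm14455, also called lower (-2.21 ± 0.43), and Ccdc152 (-1.51 ± 0.31) overlaps Selenop on the other strand, so neither pair can be told apart. Gpr155, Tcn2 (the vitamin B12 carrier transcobalamin 2), Renbp, Nme4, Idh1 (cytosolic isocitrate dehydrogenase), Aff3, Hs1bp3 and the GTPase gene Rhob fell by 1.06 to 1.72 on the log2 scale. Hdac5, Plin3 (a lipid droplet coat protein), Sat1 (which acetylates polyamines), Ripor1, Nfic and Rap2b fell by 0.63 to 0.99. Over all 42 lower genes, vehicle replicate 2 was the highest vehicle library for 31 (73.8%), against 36.8% of all genes and 48.4% of genes with a negative log2 fold change.

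The level of macrophage markers moved with these lower genes, so the fit was repeated with the log2 sum of the 10 core markers as a covariate over all 24 libraries. With it the 42 lower genes had a median log2 fold change of -1.14, against -1.77 without it, and 38 of them kept an unadjusted p under 0.05. The 23 higher genes had a median of 1.01, against 0.92 without it, and all 23 kept an unadjusted p under 0.05. Signs stayed as they were for all 65 genes. These genes were chosen by their p-values in the same libraries, so the p-values they keep are no independent support. Over all genes tested, 1568 had an unadjusted p under 0.05 with the covariate, against 2836 without it. The marker sum did not overlap between the groups compared, so treatment and marker level cannot be told apart here. The median SE was wider with the covariate, 0.24, against 0.17 without it, for the higher genes and 0.40, against 0.33, for the lower genes, and 8 genes passed the threshold in all, 3 of which (Icam1, Gm47079 and Cass4) were among the 65. Icam1 had a log2 fold change of 1.91 ± 0.29 (adjusted p = 0.0225) and Nfkbia one of 1.33 ± 0.26 (adjusted p = 0.109). Zc3h12a had 1.18 ± 0.45, against 2.05 ± 0.41 without the covariate. Lmo2 had -0.89 ± 0.43, Csf1r -1.15 ± 0.34 and Slamf6 -1.91 ± 0.42, against -2.44, -1.95 and -1.86 without it. Among genes not called, Cd74 had -0.26 ± 0.47, against -1.56 without the covariate, and Tnfrsf11a had -0.80 ± 0.45, against -1.82. C1qc, itself 1 of the 10 markers in the covariate, had -0.53, against -2.19.

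**Figure D4:**
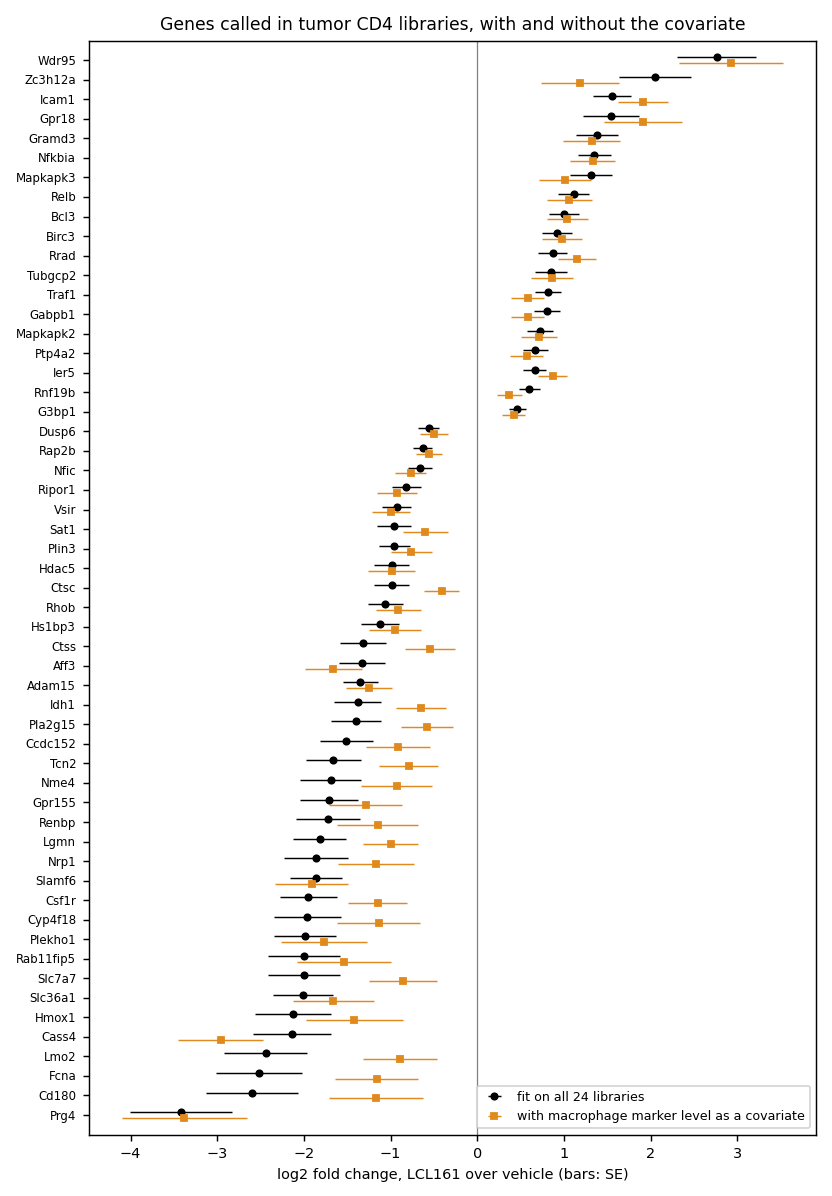
Log2 fold change (LCL161 over vehicle, bars SE) of the 55 named genes past the threshold, Trp73 left out because its vehicle libraries hold no count, in the fit to all 24 libraries (black) and with the macrophage marker level as a covariate (orange). Icam1 is at 1.55 without and 1.91 with the covariate, Slamf6 at -1.86 and -1.91, and Lmo2 at -2.44 and -0.89.

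Marker lists of other cells were read as well. B and plasma cell markers summed to 120 to 225 CPM with LCL161 and to 153, 1140 and 347 CPM with vehicle, and none of the 14 was called. Conventional dendritic cell markers summed to 258 to 389 CPM with LCL161 and 302 to 1220 CPM with vehicle, and plasmacytoid dendritic cell markers to 379 to 563 CPM with LCL161 and 454 to 1320 CPM with vehicle. In all 3 lists the sums overlapped between the groups and vehicle replicate 2 was the highest library. No member of the 3 lists was called. All 14 B and plasma cell markers had a negative log2 fold change (median -1.85), and 9 were lower at an unadjusted p under 0.05. Of the 14 conventional dendritic cell markers 12 were negative (median -1.4), with 8 lower and 1 higher at that p. Of the 10 plasmacytoid dendritic cell markers 9 were negative (median -1.6), with 6 lower at that p. Erythroid markers summed to 1.6, 97.9 and 3.54 CPM with LCL161 and 193, 358 and 174 CPM with vehicle, with Slc4a1 at 0 in all 6 libraries and no member called. Endothelial and platelet markers summed to 78.7 to 113 CPM with LCL161 and 119 to 252 CPM with vehicle, with Tek at 0 in all 6 libraries and Vwf called lower. The sum of fibroblast markers was high in 1 library, LCL161 replicate 3, at 253 CPM. It was 26.2 and 30 CPM in the other LCL161 libraries and 30.9 to 83 CPM with vehicle. Of the 8 tested, 6 had a positive and 2 a negative log2 fold change (median 0.61), and none was called. In 2 of them the groups did not overlap. Lum had 1.41, 1.56 and 5.4 CPM with LCL161 and no count with vehicle. Col1a2 had 0.704, 1 and 46.9 CPM with LCL161 and 0.0482, 0 and 0 CPM with vehicle. The part of these cells in the results was not tested.

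Lists of cell cycle and of T cell receptor genes gave no calls. Which cells in these bulk libraries carried the RNA of these genes was not tested. All 34 cell cycle and DNA replication genes had a positive log2 fold change, against 48.1% of all genes tested. Of the 34, 13 were higher at an unadjusted p under 0.05, against 5.57% of all genes. None of the 34 was called, and the list median was 0.61. Their sum was 5070, 4080 and 3680 CPM with LCL161, against 2820, 2960 and 2970 CPM with vehicle, and the groups did not overlap. Mcm2, a subunit of the replicative helicase, had 276, 232 and 235 CPM with LCL161 and 175, 169 and 163 CPM with vehicle (0.55 ± 0.17, adjusted p = 0.137), groups that stood apart without passing. The T cell receptor complex and its early signalling genes had a median of 0.39 with 0 of 17 called.

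Effector genes gave no calls. Ifng, the gene of interferon gamma, had 172, 368 and 155 CPM with LCL161 and 290, 64.3 and 67.6 CPM with vehicle (adjusted p = 0.66). Gzmb, encoding granzyme B, averaged 177 ± 113 CPM with LCL161 and 138 ± 71.5 CPM with vehicle, and Tnf averaged 80.7 ± 2.5 CPM with LCL161 and 70.8 ± 39.5 CPM with vehicle. The groups overlapped for these 3 genes. No gene was called among 13 tested type 1 helper and effector cytokine genes (median 0.35), 13 cytotoxic effectors (0.24), 7 tested type 2 helper genes (-0.24) or 10 type 17 genes (-0.46). The type 1 genes summed to 3570, 4020 and 3700 CPM with LCL161 and 3190, 2540 and 3220 CPM with vehicle, without overlap. LCL161 and vehicle libraries stood apart for 4 of the 13, a separation that 15.2% of all genes tested also had. A shift of this list was not tested. Il12rb2, the receptor chain for interleukin 12, had 150, 191 and 175 CPM with LCL161 and 103, 50 and 67.1 CPM with vehicle (1.23 ± 0.34, adjusted p = 0.114). Among the type 1 genes only Hopx had a smaller adjusted p (0.68 ± 0.18, adjusted p = 0.0982). Cxcr3 was next and went the other way, with 213, 287 and 335 CPM with LCL161 and 382, 548 and 432 CPM with vehicle. Its groups were separate (-0.71 ± 0.21, adjusted p = 0.136). Of the 13 type 1 genes, 8 had a positive and 5 a negative log2 fold change. Gamma delta T cell genes had a median of -0.89 and none of 14 called, and their sum of 3220 CPM in vehicle replicate 1 stood above the other vehicle libraries (704 and 274 CPM) and the LCL161 libraries (181 to 898 CPM).

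Lists for survival and receptor signalling were likewise without calls. In the BCL2 family, 15 of 16 genes were tested, 11 had positive values and the median was 0.44; Bcl2l1, which encodes the survival protein Bcl-xL, had 161, 179 and 130 CPM with LCL161 and 125, 103 and 77.9 CPM with vehicle (adjusted p = 0.162). The TNF receptor family had a median of -0.34 (0 of 14 called) and the TNF ligands one of 0.25 (0 of 16 tested). Tnfrsf11a, the receptor RANK, had 6.34, 3.34 and 5.5 CPM with LCL161 and 14.8, 24.9 and 13.9 CPM with vehicle (-1.82 ± 0.42, adjusted p = 0.0662), and Ltb, encoding lymphotoxin beta, had 1780, 1410 and 1700 CPM with LCL161 and 1250, 1200 and 936 CPM with vehicle (adjusted p = 0.243). Both had separate groups, in opposite directions. The ligand genes themselves went both ways, with 1 higher and 2 lower at an unadjusted p under 0.05. Tnfsf13 had the smallest adjusted p of the ligands and was lower without overlap (-2.00 ± 0.46, adjusted p = 0.0662). It had 1.27, 0.889 and 1.77 CPM with LCL161 and 4.63, 8.69 and 2.49 CPM with vehicle. Type I interferon response genes had a median of -0.26 and 0 of 18 called.

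The LCL161 effect in tumor CD4 libraries was set against that in spleen CD4 libraries, where 0.238% of genes were higher and 0.193% lower, and in tumor CD8 libraries, where 0.233% were higher and 0.0149% lower. Of the 23 genes higher in tumor CD4, 9 were called higher in spleen CD4 (39.1% of the 23 and 18.8% of the 48 higher there) and 12 in tumor CD8 (52.2% of the 23 and 25.5% of 47). Nfkbia, Icam1, Relb, Bcl3, Birc3, Traf1, Rrad and Zc3h12a were called in all 3 populations, as was Gm47079. Nfkbia had a log2 fold change of 1.35 ± 0.19 in tumor CD4, 1.42 ± 0.19 in spleen CD4 and 1.79 ± 0.19 in tumor CD8. Of the 42 lower genes none was called in spleen CD4 and 1 in tumor CD8, the Ras-like GTPase gene Rap2b (-0.63 ± 0.11 in tumor CD4 and -0.83 ± 0.11 in tumor CD8). The median over the 42 was -1.77 in tumor CD4, -0.32 in spleen CD4 and -0.50 in tumor CD8, and that over the 23 higher genes was 0.92 in tumor CD4, 0.64 in spleen CD4 and 0.84 in tumor CD8. These genes were chosen by their tumor CD4 values, so the medians are no comparison of the populations.

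Tests of the differences themselves called few genes. Between tumor CD4 and spleen CD4, 2 genes differed (0.00991% of those tested), with 10.2% of genes at an unadjusted p under 0.05. Adam15 was lower with LCL161 in tumor CD4, while in spleen CD4 it averaged 9.64 ± 1.38 CPM with LCL161 and 6.73 ± 1.06 CPM with vehicle (0.52 ± 0.20); the difference of effects was -1.87 ± 0.28 (adjusted p = 0.0275). Nme4, a nucleoside diphosphate kinase gene of mitochondria, had 1.64, 0.667 and 1.12 CPM with LCL161 and 3.47, 5.18 and 2.49 CPM with vehicle in tumor CD4, and in spleen CD4 averaged 3.83 ± 1.12 CPM with LCL161 and 1.3 ± 0.0475 CPM with vehicle (difference -3.24 ± 0.49, adjusted p = 0.0275). No gene passed this test of the difference without vehicle replicate 1 or 2 of tumor CD4, without vehicle replicate 1 or 3 of spleen CD4, or without LCL161 replicate 2 of spleen CD4. Without LCL161 replicate 1 of either population 1 gene passed, without vehicle replicate 3 of tumor CD4 there were 6, and without LCL161 replicate 3 of spleen CD4 there were 21. Between tumor CD4 and tumor CD8, 0 genes differed (0%) in edgeR, with 1116 at an unadjusted p under 0.05; limma voom called 0 and DESeq2 41, and edgeR called 1 gene without tumor CD4 LCL161 replicate 2 or vehicle replicate 1. Macrophage core markers in the tumor CD8 libraries summed to 574 to 868 CPM with LCL161 and 1240 to 1900 CPM with vehicle, and in spleen CD4 to 176 to 389 CPM with LCL161 and 71.2 to 278 CPM with vehicle, so the tumor CD4 vehicle libraries held the most.

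**Figure D5:**
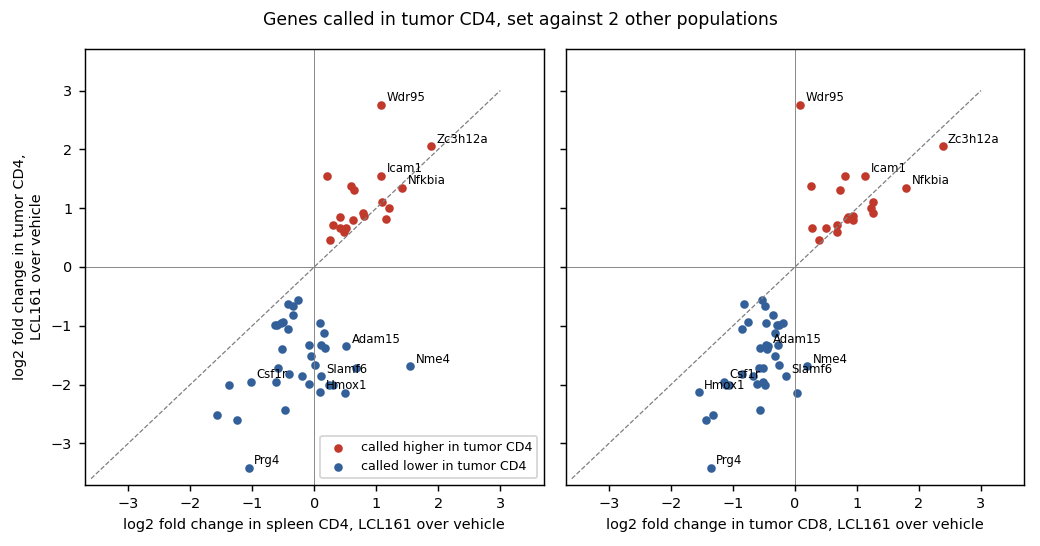
Log2 fold change (LCL161 over vehicle) in tumor CD4 on the vertical axis against that in spleen CD4 (left) and tumor CD8 (right) for the 55 named genes past the threshold in tumor CD4, Trp73 left out; the dashed line marks equal effects. Of the higher genes, Nfkbia (1.35, 1.42 and 1.79 in tumor CD4, spleen CD4 and tumor CD8) and Wdr95 (2.76, 1.08 and 0.08) lie on opposite sides of the line in both panels, Wdr95 the farther from it, while Nme4 and Adam15 lie to the right of 0 in spleen CD4.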

How the data were processed

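RNA was sequenced from 24 libraries in 8 groups of 3 (tissue, sorted population, treatment). Per the submitters' processing notes, cutadapt, STAR 2.7.3a and GRCm38 were used. The authors deposited 1 table of expected counts per gene. No source used here gives its counting tool, annotation or strand setting. Of the table, 52.7% of non-zero values, not being whole, were rounded before testing. Of 55025 gene symbols, 34988 had a count, and filterByExpr (minimum count 10) kept 20174.

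All libraries entered a single robust quasi-likelihood fit in edgeR 4.0.16, with 1 mean for each group (R 4.3.3; TMM factors 0.939 to 1.05; 16 residual degrees of freedom; common coefficient of biological variation 0.326), so that 3 libraries a group share an estimate of the spread. Adjustment followed Benjamini and Hochberg (threshold 0.05). Every pair of replicates differed by more than counting error. Gene positions came from the annotation that goes with GRCm38, promoters from RefSeq. The members and the 47 gene lists were chosen with earlier results of these data known. Lists were described by counts and medians and were not tested.

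Named genes were those past the threshold with at least 1 CPM in the higher group, at most 40 each way, without predicted genes, clones, pseudogenes and receptor segments (20 higher and 36 lower, with 8 left out by name and 1, Vwf, by level). Added to them were all members of the first 3 NF-kB lists, up to 4 members of each other list with the smallest adjusted p, genes called in a difference and a panel of 15 genes such as Trac, Cd4 and Ifng. As alternatives, scaling was by RLE or left out, the filter was left out or set at 5 CPM in 3 libraries, DESeq2 1.42.0 or weighted voom in limma 3.58.1 replaced edgeR, and there were fits with the compared libraries alone, replicate blocks, the macrophage covariate, a 2-fold minimum or each library left out. On simulated data with the same design (19727 genes), edgeR recovered 34% of genes changed 2-fold and 77% of those changed 4-fold, with 4 of 115 calls on unchanged genes; DESeq2 had 40 of 176 such calls and limma voom 16 of 122. Simulated counts were drawn for each gene on its own, with changes only in tumor CD4 and only in genes above a minimum count. They held no shift shared by many genes of a library, so these rates need not hold for the real libraries. Some genes of the lists are not reported here.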

Additional observations from a re-analysis of the deposited data

Results flagged for a closer look

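Adam15 and Nme4 were picked out because the LCL161 effect in tumor CD4 libraries differed from that in spleen CD4 libraries by a test of the difference itself. For Adam15 the difference of log2 fold changes, tumor CD4 minus spleen CD4, was -1.87 ± 0.28, and for Nme4 it was -3.24 ± 0.49, both with an adjusted p of 0.0275 in edgeR (n = 3 libraries a group). Adam15 averaged 15.8 ± 2.64 CPM with LCL161 and 40.4 ± 12.5 CPM with vehicle in tumor CD4, and 9.64 ± 1.38 CPM with LCL161 and 6.73 ± 1.06 CPM with vehicle in spleen CD4. Nme4 was low throughout, at 1.14 ± 0.488 CPM with LCL161 and 3.71 ± 1.36 CPM with vehicle in tumor CD4, and 3.83 ± 1.12 CPM with LCL161 and 1.3 ± 0.0475 CPM with vehicle in spleen CD4.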

How the results depend on the processing

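The count of 65 genes called in tumor CD4 moved between the alternatives. It was 60 with RLE scaling, 75 with no scaling, 26 with no filter, 107 with a filter of 5 CPM in 3 libraries, 736 with DESeq2, 134 with limma voom, 0 on the 6 libraries alone, 8 with the macrophage covariate and 43 with a 2-fold minimum as well. In limma voom 12 of the 56 named called genes did not pass, among them Cd180 (adjusted p = 0.161) and Lmo2 (adjusted p = 0.104). Leaving out 1 library gave 0 to 375 genes over the tumor CD4 libraries. Leaving out spleen CD4 or tumor CD8 libraries, an alternative chosen after seeing the data, gave 20 to 100. The cause of these moves was not tested. Deviations of same-numbered LCL161 and vehicle libraries correlated at -0.0557, -0.113 and 0.0549. These come from differently treated mice, so they cannot show whether replicate numbers pair samples. Between tumor CD4 and spleen CD4 the values were 0.00483, 0.112 and 0.0882 with LCL161 and 0.0711, -0.144 and -0.168 with vehicle. Between tumor CD4 and tumor CD8 they were 0.0155, -0.0383 and 0.00524 with LCL161 and 0.0241, 0.0986 and -0.0208 with vehicle. The tests of differences took all libraries as independent. With a replicate block the count of genes called in tumor CD4 was 48, and 26 with a block within tissue. The difference from spleen CD4, with 2 genes, gave 1 with the 5 CPM filter, 137 with DESeq2, 0 on the libraries compared, 0 with a replicate block, 1 with a block within tissue, 4 with the covariate and 0 to 21 with 1 library left out. The difference from tumor CD8, with 0, gave 41 with DESeq2 and 0 to 1 with 1 library left out. The difference of mean log2 macrophage sums ran from -2.17 to -1.51 over the libraries left out. With 3 libraries a group and a 34% recovery of simulated 2-fold changes, a gene without a call may still have changed.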

Other observations

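One T cell receptor segment was among the genes past the threshold and is given here as a value chosen after it was seen. Trbv2, a variable segment of the beta chain, had 0.469, 0 and 0.186 CPM with LCL161, against 6.71, 24.8 and 12.2 CPM with vehicle (log2 fold change -5.98 ± 1.27, adjusted p = 0.0498 in edgeR). Its groups did not overlap, and limma voom gave an adjusted p of 0.0664. In spleen CD4 it averaged 1.22 ± 1.91 CPM with LCL161 and 3.07 ± 2.75 CPM with vehicle.

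Vwf, the gene of von Willebrand factor and a marker of endothelium and platelets, was called below 1 CPM, with 0.0939, 0 and 0 CPM with LCL161 and 0.627, 1.12 and 0.441 CPM with vehicle (adjusted p = 0.0239). For this gene limma voom gave an adjusted p of 0.191.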
